A study of Homo sapiens with 8 samples.

Results

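The genes of interest were 6 genes of the complement system, C1S, C1R, C3, CD46, CD55 and CD59, which are 6 of the 12939 genes with values in cancer stem cells (CSCs) of the human breast cancer line MDA-MB-231. They were taken by name, and the group was chosen by the C1S values, which were lower in both knockdowns than with scramble shRNA, so C1S is given without a test in those comparisons. All 6 genes were found in every library. The RNA-Seq libraries were 3 from scramble cells, 3 from cells with an shRNA to CDH2 (N-cadherin, an adhesion protein) and 2 from cells with one to Cx43 (connexin 43, a gap junction protein encoded by GJA1). The comparisons ask what CSCs change in their transcripts when either protein, studied for its part in contact with bone marrow niche cells, is reduced. All 8 libraries came from triple-negative MDA-MB-231 cells that carried a stable Oct4a-GFP reporter and a vector with RFP and an shRNA, were kept in puromycin and G418, were sorted for high GFP (the brightest fraction, called CSCs) and high RFP, and recovered overnight before RNA was taken. The methods say that Clone B was selected for CDH2, and do not say whether this is a clone of cells or of the shRNA vector. Effects of that clone and of the knockdown therefore cannot be told apart. The labels do not say whether libraries of a group came from separate cultures, so p-values measure only the spread between these libraries, which may be technical.

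Complement is a cascade of plasma proteins that marks cells for uptake and can open their membranes. C1R and C1S are the serine proteases of the C1 complex: C1R activates itself and then cleaves C1S, and C1S cleaves C4 and C2, which leads to cleavage of C3, the protein on which all routes of activation meet. Cells protect themselves with membrane regulators. CD46 is a cofactor for the inactivation of C3b and C4b, CD55 speeds the decay of the convertases that cleave C3 and C5, and CD59 blocks the assembly of the membrane attack complex. CD55 and CD59 are held in the membrane by a glycosylphosphatidylinositol (GPI) anchor. Liver makes most of the plasma proteins, but fibroblasts and many tumour cells also transcribe C1R, C1S and C3.

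The sequence of the C1R promoter is shown because C1R was the 1 gene of interest past the threshold in a test. RefSeq promoter windows (GRCh38.p14) were found for 4 of the 6 genes, CD46, CD55, CD59 and C1R, which has 2 windows. The bases before the upstream start of C1R, at chr12:7092446-7092695 on the minus strand, follow 5′ to 3′, with a match to the C/EBP motif TTGCNNAA in capitals.
C1R promoter: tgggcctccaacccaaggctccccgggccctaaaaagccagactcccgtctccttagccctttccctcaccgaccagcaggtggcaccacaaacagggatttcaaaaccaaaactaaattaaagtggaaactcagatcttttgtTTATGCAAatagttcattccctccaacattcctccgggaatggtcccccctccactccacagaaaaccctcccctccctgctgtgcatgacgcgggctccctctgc
The match, read on the opposite strand, lies from base -106 to base -99 before the start, and 10.5% of the 35116 windows hold this motif on either strand. C/EBP factors are known to act on acute phase genes. Of 5 other motifs, each searched on both strands, this window held none: NF-kappaB (in 1.61% of windows), STAT (TTCNNNGAA, 7.66%), the interferon response element (3.57%), AP-1 (TGANTCA, 7.71%) and the GC box (GGGCGG, 45.0%). These windows are 250 bases before to 50 bases after a start, and none of the 6 motifs overlaps another in the sequence shown. The second window of C1R held 1 match to the C/EBP motif and 1 to the STAT motif. Matches were not particular to C1R: the 4 windows of CD59, which overlap in pairs so that a site can count more than once, held 2 matches to the C/EBP motif, 2 to the STAT motif and 3 to the AP-1 motif, and GC boxes were found in the windows of CD46, CD55 and CD59. A match is a description of the letters and not a site of binding.

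Values are log2(CPM + 1), where CPM is a gene's reads scaled to a common library total, with the effect of the sequencing run removed by the authors. Turned back, the CPM of a library summed to between 684411 and 727083. Depth is unknown because no counts were used here, so its effect on the precision of low genes could not be judged. The small number of libraries also limits the precision. Transcripts of CDH2 and GJA1 were not analysed here, so these values give no check of the knockdown labels. The paper checked both knockdowns at the protein level by Western blot. All 7 markers of MDA-MB-231 on the marker list were found, and of 6 luminal markers only ERBB2. The share of summed CPM in 13 mitochondrial genes was 0.594% to 1.01% in scramble, 1.16% to 2.03% in CDH2 knockdown and 1.25% to 2.36% in Cx43 knockdown, and its part in the results below was not tested. Scramble replicate 1 lay between the other 2 scramble libraries in 12482 genes (96.47%), so the scramble spread rests on less than 3 free values, and each call is also given without that library. As these are bulk samples, fewer cells that express a gene and less RNA per cell cannot be told apart.

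C1S was lower in both knockdowns, and this is the pattern for which the group was chosen. The level of C1S in log2(CPM + 1) was 2.73, 2.62 and 2.81 in scramble replicates 1, 2 and 3, 1.95, 1.76 and 1.73 in CDH2 knockdown replicates 1, 2 and 3, and 1.45 and 1.75 in Cx43 knockdown replicates 1 and 2. All 5 knockdown libraries lay below all 3 scramble libraries, and the 2 knockdowns overlapped each other. The mean level was 5.60 CPM in scramble, 2.53 CPM in CDH2 knockdown and 2.04 CPM in Cx43 knockdown. The log2 fold change was -0.91 (SE 0.125) in CDH2 knockdown and -1.12 (SE 0.146) in Cx43 knockdown, and the 1 added to the CPM makes such values too small for a low gene. Within replicate numbers, the log2 differences between CDH2 knockdown and scramble were -0.776, -0.857 and -1.08, and those between Cx43 knockdown and scramble were -1.28 and -0.873. C1S was a low gene, with a scramble mean at percentile 14.5 of all genes. The lowest maximum of any gene in the files was 2.001 in log2(CPM + 1), and C1S reached it only in the scramble libraries, so a C1S at its knockdown level in all libraries would not have been in the files.

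C1R, the protease that activates C1S, fell in CDH2 knockdown. Its level in log2(CPM + 1) was 3.11, 3.03 and 3.14 in scramble, 2.19, 1.78 and 1.92 in the CDH2 and 2.53 and 3.03 in the Cx43 knockdown. The CDH2 knockdown libraries were well below all others, while Cx43 knockdown replicate 2 was level with the scramble library of the same number (log2 difference -0.00264). Mean levels were 7.53 CPM in scramble, 2.92 CPM in CDH2 knockdown and 5.96 CPM in Cx43 knockdown. The log2 fold change in CDH2 knockdown was -1.13 (SE 0.172, 95% interval -1.55 to -0.706), which was past the threshold (limma, adjusted p = 0.0225, lower in 3 of 3 replicate numbers). The threshold, with the folds of the study's methods, was an adjusted p under 0.05 and a log2 fold change of 0.731 or more in either direction for CDH2 knockdown, or 0.585 for Cx43 knockdown and for the direct comparison. In Cx43 knockdown the log2 fold change of C1R was -0.31 (SE 0.202, 95% interval -0.811 to 0.183), which was not past it (limma, adjusted p = 0.414). The 2 libraries of Cx43 knockdown differed from scramble by -0.58 and -0.00264, so the estimate rests on replicate 1 and was 0.06 without it.

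The call of C1R in CDH2 knockdown depended on single libraries. The adjusted p of limma was 0.105 without scramble replicate 1, 0.0836 without CDH2 knockdown replicate 1 and 0.0842 without CDH2 knockdown replicate 2. It was 0.0561 without either Cx43 knockdown library, which enter only through the shared spread. The log2 fold change stayed between -1.31 and -0.98 over these and the other libraries left out.

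**Figure D1:**
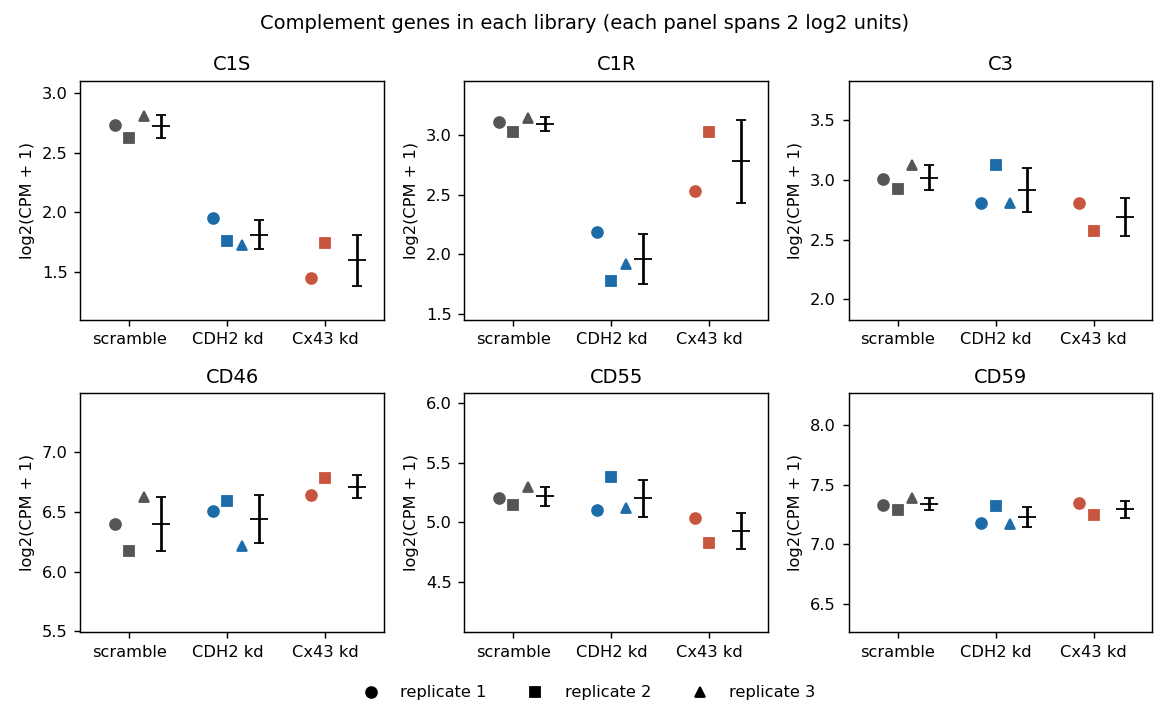
Levels of the 6 complement genes in each library, in log2(CPM + 1), by group (kd, knockdown), with the shape of a point giving the replicate number and the bar giving the mean and SD. Each panel spans 2 log2 units, and C1S in both knockdowns and C1R in CDH2 knockdown lie below all scramble libraries, while the log2 fold changes of CD46, CD55 and CD59 lie between -0.29 and 0.31.

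C3 is the central component of the cascade. Its level in log2(CPM + 1) was 3.01, 2.92 and 3.13 in scramble, 2.81, 3.13 and 2.80 in the CDH2 and 2.80 and 2.57 in the Cx43 knockdown. CDH2 knockdown overlapped scramble, and both Cx43 knockdown libraries lay below it. The log2 fold change of C3 was -0.10 in CDH2 knockdown (SE 0.135, 95% interval -0.437 to 0.227, limma adjusted p = 0.595) and -0.33 in Cx43 knockdown (SE 0.158, 95% interval -0.719 to 0.0587, limma adjusted p = 0.291). C3 was therefore not past the threshold in either, and the C1R estimate in CDH2 knockdown (log2 fold change -1.13) lay outside both intervals. The 95% interval of that estimate (-1.55 to -0.706) overlapped that of C3 in Cx43 knockdown. The genes were not tested against each other.

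CD46, the cofactor that helps inactivate C3b, was among the abundant transcripts, with a scramble mean of 84.1 CPM. In log2(CPM + 1) its level was 6.40, 6.17 and 6.62 in scramble, 6.51, 6.59 and 6.22 in the CDH2 and 6.64 and 6.78 in the Cx43 knockdown. Both Cx43 knockdown libraries lay just above the highest scramble library, and CDH2 knockdown overlapped scramble. The fit gave a log2 fold change of 0.04 in CDH2 knockdown (SE 0.163, 95% interval -0.361 to 0.441, limma adjusted p = 0.875) and 0.31 in Cx43 knockdown (SE 0.191, 95% interval -0.157 to 0.783, limma adjusted p = 0.392).

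CD55, the decay-accelerating factor, had a scramble mean of 36.2 CPM. Levels in log2(CPM + 1) were 5.21, 5.14 and 5.30 in scramble, 5.10, 5.38 and 5.12 in the CDH2 and 5.04 and 4.82 in the Cx43 knockdown. CDH2 knockdown spread to both sides of scramble, and Cx43 knockdown lay below it. The log2 fold changes were -0.01 in CDH2 knockdown (SE 0.12, 95% interval -0.309 to 0.281, limma adjusted p = 0.945) and -0.29 in Cx43 knockdown (SE 0.14, 95% interval -0.632 to 0.0589, limma adjusted p = 0.301).

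CD59, the inhibitor of the membrane attack complex, was the most abundant of the 6 genes, with a scramble mean of 161 CPM at percentile 94.4 of all genes. It was at 7.33, 7.29 and 7.39 log2(CPM + 1) in scramble, 7.18, 7.33 and 7.17 in the CDH2 and 7.34 and 7.24 in the Cx43 knockdown. All 3 groups overlapped. The log2 fold changes were -0.11 in CDH2 knockdown (SE 0.0878, 95% interval -0.324 to 0.109, limma adjusted p = 0.404) and -0.04 in Cx43 knockdown (SE 0.103, 95% interval -0.294 to 0.213, limma adjusted p = 0.846). For the 3 membrane regulators, the 95% intervals in both knockdowns excluded the estimate for C1R in CDH2 knockdown. The genes were not tested against each other.

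Of the 5 genes other than C1S, 1 (C1R) passed the threshold in CDH2 knockdown, and with Cx43 shRNA 0 did in limma (0 at an unadjusted p under 0.05). For comparison, 2.06% of all genes were past it in CDH2 knockdown (1.2% lower) and 1.18% in Cx43 knockdown (0.781% lower). Without a threshold, 1 of the 5 did not overlap scramble in CDH2 knockdown and 4 did not in Cx43 knockdown, of which 3 were lower and 1 (CD46) was higher. Over all genes, 51.9% did not overlap scramble in CDH2 knockdown (24.8% lower), and 52.8% did not in Cx43 knockdown (21.4% lower and 31.4% higher).

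The levels of the 6 genes were ordered per kb of exon, with lengths from GENCODE v44 (hg38). Each length joins the exons of all annotated transcripts of a gene, so the order of genes at close levels may depend on this choice. In scramble, the mean level was 15.3 CPM per kb for CD59 (range over libraries 14.7 to 15.8), 5.42 for CD46 (4.59 to 6.29) and 3.53 for CD55 (3.35 to 3.74). It was 1.30 CPM per kb for C1R (1.23 to 1.35), 0.675 for C1S (0.621 to 0.725) and 0.615 for C3 (0.567 to 0.669). The regulators of the membrane thus stood above the proteases and C3, and of neighbours in this order only C1S and C3 overlapped. In CDH2 knockdown C1R, at 0.503 CPM per kb (0.419 to 0.615), lay next to C3 at 0.568 (0.517 to 0.668), with overlap, and C1S was lowest at 0.305 (0.278 to 0.347). In Cx43 knockdown C1R kept 1.03 CPM per kb (0.824 to 1.23), above C3 at 0.472 (0.428 to 0.516) and C1S at 0.246 (0.208 to 0.284), with no overlap. CD59, CD46 and CD55 kept the top of the order in both knockdowns.

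The level of C1R relative to C1S, the other protease of the C1 complex, was compared between the groups. The C1R level minus the C1S level, in log2(CPM + 1), was 0.38, 0.407 and 0.329 in scramble (mean 0.372, SD 0.0396, n = 3). It was 0.236, 0.0157 and 0.19 in CDH2 knockdown (mean 0.147, SD 0.116, n = 3) and 1.08 and 1.28 in Cx43 knockdown (mean 1.18, SD 0.137, n = 2). The Cx43 knockdown libraries lay far above the other 6, and the CDH2 knockdown libraries lay below scramble. This gap contains C1S and is given with no test.

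**Figure D2:**
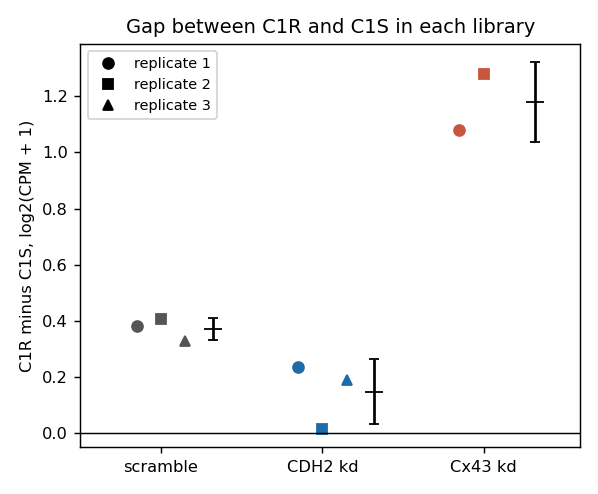
C1R minus C1S in each library, in log2(CPM + 1), by group (kd, knockdown), with the shape giving the replicate number and the bar the mean and SD. The gap was 1.08 and 1.28 in Cx43 knockdown and between 0.0157 and 0.407 in the other 6 libraries.

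The knockdowns were compared with each other directly. C1S was 0.22 higher in CDH2 than in Cx43 knockdown on the log2 scale (SE 0.146, 95% interval -0.143 to 0.577), which was not past the threshold (limma, adjusted p = 0.448). C1R was lower in CDH2 than in Cx43 knockdown, at a log2 difference of -0.82 (SE 0.202, 95% interval -1.31 to -0.319), in both replicate numbers that the groups share (-0.34 and -1.25). Its unadjusted p in limma was 0.00716 and its adjusted p 0.148, so it did not pass the threshold. In this comparison limma called 0 of 12939 genes (0%), with 2591 at an unadjusted p under 0.05, and without the replicate block it called 360 genes, C1R among them (adjusted p = 0.0158). For C3, CD46, CD55 and CD59 the log2 differences were between -0.27 and 0.27, with adjusted p of limma between 0.334 and 0.744. C1R also passed this comparison without scramble replicate 2 (limma, adjusted p = 0.0151), while its log2 difference was -0.45 without Cx43 knockdown replicate 2. It passed as well without scramble replicate 3 or CDH2 knockdown replicate 3 (limma, adjusted p = 0.012 in each). Those are the same fit, as the library left alone in replicate number 3 sets only its own block term.

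The rest of the pathway was taken from a list of 62 complement genes, of which 17 were in the files. By role, these were 4 of 19 recognition proteins and proteases, 2 of 4 genes of the alternative pathway, 0 of 7 of the terminal pathway, 2 of 14 soluble regulators, 5 of 9 membrane regulators and 4 of 9 receptors. Without C1S, 16 genes remained. In CDH2 knockdown 3 of these 16 were past the threshold, all lower (C1R, CLU and SUSD4), beside 2.06% of all genes and 1.2% lower, with a median log2 fold change of -0.11 beside 0.01 over all genes. In Cx43 knockdown 1 was past it, also lower (SUSD4), beside 1.18% of all genes and 0.781% lower, with a median log2 fold change of -0.30 beside 0.04. Of the 11 genes on the list outside the 6, 2 passed the threshold in CDH2 knockdown and 1 did with Cx43 shRNA, to be read beside the same shares. C5AR1 is among the 16 and the 11 genes and, like C1S, reached the lowest maximum of the files only in scramble. Its lower side is a condition of its presence, so its part in these medians and counts is no result. The comparisons share the scramble libraries.

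SUSD4, a membrane protein with sushi domains known to inhibit complement, fell in both knockdowns. Its level in log2(CPM + 1) was 3.47, 3.50 and 3.46 in scramble, 2.63, 2.83 and 2.76 in the CDH2 and 2.71 and 2.49 in the Cx43 knockdown. Every knockdown library lay below scramble, and the knockdowns overlapped. The log2 fold change of SUSD4 was -0.74 in CDH2 knockdown (SE 0.101, limma adjusted p = 0.0209) and -0.88 in Cx43 knockdown (SE 0.118, limma adjusted p = 0.0391). Its adjusted p rose to 0.125 in CDH2 knockdown and 0.254 in Cx43 knockdown without scramble replicate 1, to 0.101 and 0.07 without CDH2 knockdown replicate 1, and to 0.0751 and 0.0701 without CDH2 knockdown replicate 2. It rose to 0.0561 and 0.211 without Cx43 knockdown replicate 1, and to 0.0561 and 0.36 without Cx43 knockdown replicate 2. With quantile normalization the log2 fold change of SUSD4 in CDH2 knockdown was -0.71, and without scramble replicate 2 it was -0.72, both short of 0.731.

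CLU encodes clusterin, a chaperone that also binds the terminal complex in plasma. In log2(CPM + 1) it was at 5.75, 5.93 and 5.57 in scramble, 4.95, 4.79 and 5.15 in the CDH2 and 5.30 and 5.28 in the Cx43 knockdown. All knockdown libraries lay below scramble. CLU fell in CDH2 knockdown (log2 fold change -0.79, SE 0.14, limma adjusted p = 0.0291), and its log2 fold change in Cx43 knockdown was -0.46 (SE 0.164, limma adjusted p = 0.19). In CDH2 knockdown its adjusted p was 0.144 without scramble replicate 1, 0.11 without CDH2 knockdown replicate 1, 0.0884 without CDH2 knockdown replicate 2 and 0.0647 without either Cx43 knockdown library. Without scramble replicate 2 its log2 fold change was -0.64, short of 0.731.

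C4BPB, the beta chain of the C4b-binding protein, did not pass the threshold. Its level in log2(CPM + 1) was 2.59, 2.71 and 2.51 in scramble, 1.94, 2.23 and 2.22 in the CDH2 and 2.05 and 1.64 in the Cx43 knockdown. Both knockdowns lay below scramble, with log2 fold changes of -0.47 (limma, adjusted p = 0.0832) and -0.76 (limma, adjusted p = 0.102). Among the other soluble and membrane-bound genes, C1RL, a protease related to C1R, had log2 fold changes of 0.45 and 0.40 in CDH2 and Cx43 knockdown, CFB, the protease subunit of the alternative convertase, -0.08 and 0.43, C1QBP, a mitochondrial protein that can bind C1q, 0.10 and 0.30, and THBD (thrombomodulin) 0.03 and -0.04. None of these 4 was past the threshold in limma (adjusted p between 0.227 and 0.919).

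The receptor genes C5AR1, the receptor for C5a, and ITGAM, ITGAX and ITGB2, the chains of complement receptors 3 and 4, were lower on average in both knockdowns. The levels of C5AR1 in log2(CPM + 1) were 2.20, 2.01 and 2.41 in scramble, 1.61, 1.79 and 1.40 in the CDH2 and 1.79 and 1.80 in the Cx43 knockdown. C5AR1, like C1S, reached the lowest maximum of the files only in scramble, so a gene present on these terms had to be lower in the knockdowns, and its log2 fold changes (-0.61 in CDH2 and -0.41 in Cx43 knockdown) are given without a test. ITGAX had log2 fold changes of -0.73 and -0.61, ITGAM of -0.09 and -0.58 and ITGB2 of -0.26 and -0.16 in CDH2 and Cx43 knockdown, and none of these 3 was past the threshold (limma, adjusted p between 0.0617 and 0.672). ITGAX in CDH2 knockdown met the fold and missed on the adjusted p of 0.0617, which was 0.0144 without the replicate block. Of 6 leukocyte markers, CSF1R and CD68 were analysed, and their summed level was 20.7 to 22.0 CPM in scramble, 19.6 to 23.5 CPM in CDH2 knockdown and 14.2 to 17.7 CPM in Cx43 knockdown. The 2 markers did not move together: CD68 was 17.1 to 17.5 CPM in scramble, 17.4 to 21.5 CPM in CDH2 knockdown and 12.5 to 15.9 CPM in Cx43 knockdown, while CSF1R was 3.60 to 4.47, 2.04 to 2.52 and 1.62 to 1.76 CPM. CSF1R thus lay below scramble in all 5 knockdown libraries, as C5AR1 and ITGAX did, with log2 fold changes of -0.63 and -0.90, and like C5AR1 it was in the files only through its scramble level, so no test is given. PTPRC, CD14, LYZ and CD3E were not analysed here. The part of leukocyte transcripts in the receptor values was not tested.

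Fibroblast markers were set beside C1S and C1R, since fibroblasts also transcribe both. Of 6 markers, COL1A1 and PDGFRB were analysed, and COL1A2, COL3A1, LUM and DCN were not analysed here. The summed level of these 2 markers was 53.7 to 66.3 CPM in scramble, 40.4 to 52.6 CPM in CDH2 knockdown and 29.6 to 40.2 CPM in Cx43 knockdown. The 2 markers went apart in CDH2 knockdown, where COL1A1 had a log2 fold change of 0.16 (limma, adjusted p = 0.692) and overlapped scramble, and PDGFRB one of -0.63 (limma, adjusted p = 0.0442, short of the fold). With Cx43 shRNA these were -0.92 and -0.72 (limma, adjusted p = 0.173 and 0.103), and both markers lay below scramble in both libraries. The part of fibroblast transcripts in the C1S and C1R values was not tested.

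**Figure D3:**
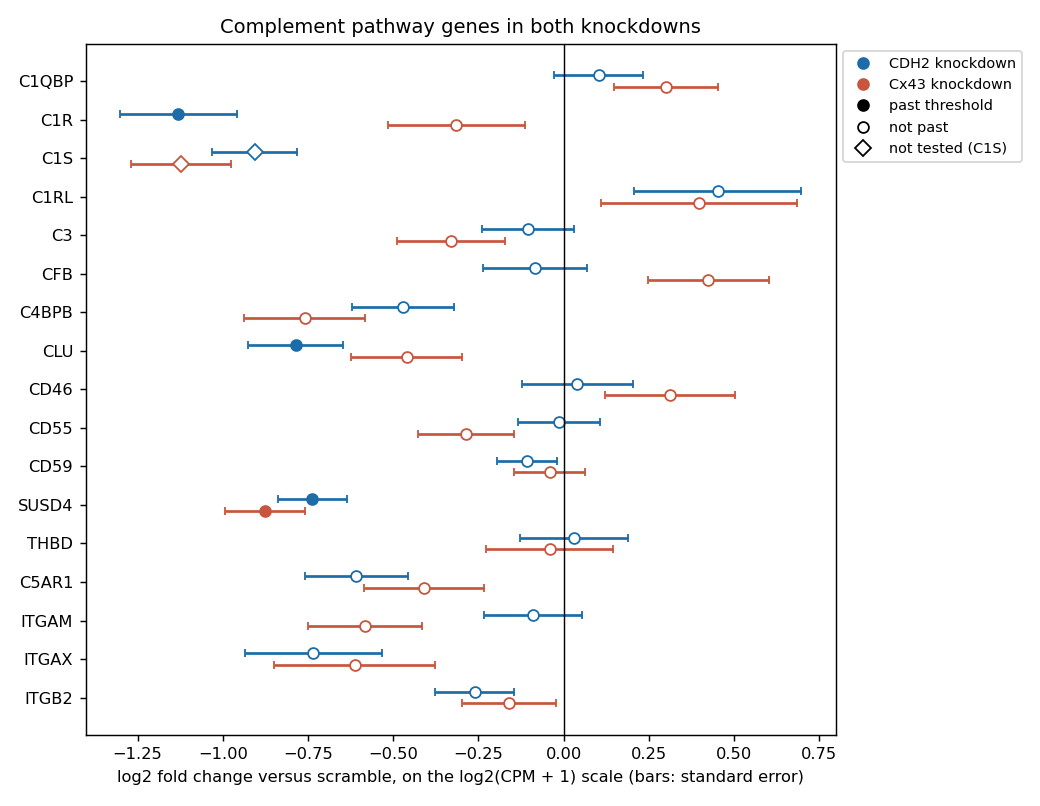
Log2 fold change against scramble, on the log2(CPM + 1) scale, of the 17 complement genes analysed in CDH2 knockdown (blue) and Cx43 knockdown (orange), with bars for the standard error. Filled circles are past the threshold (C1R, CLU and SUSD4 in CDH2 knockdown and SUSD4 in Cx43 knockdown). Open circles are not past it, and diamonds mark C1S, which was not tested. C5AR1 is drawn with open circles, but it was in the files only through scramble, so these are not to be read as a test.

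Genes that make or attach the GPI anchor were examined because CD55 and CD59 carry one. Of 30 such genes, 26 were analysed, and none was past the threshold in either knockdown with limma (12 and 2 at an unadjusted p under 0.05 in CDH2 and Cx43 knockdown). Their median log2 fold change was -0.00862 with CDH2 shRNA and 0.049 with Cx43 shRNA, beside 0.00697 and 0.0432 over all genes. At an adjusted p under 0.05 alone there were 2 in CDH2 knockdown, PIGW, which acylates inositol in the anchor (log2 fold change 0.63, limma adjusted p = 0.0196), and PIGA, which takes part in its first step (0.33, limma adjusted p = 0.045), beside 14.3% of all genes, and 0 in Cx43 knockdown, beside 1.21%. The largest log2 fold changes were those of PIGW and PGAP1 (0.63 each) in CDH2 knockdown and of the same genes (0.48 and 0.38) in Cx43 knockdown. Of all genes, 4855 had an unadjusted p under 0.05 in CDH2 knockdown and 2801 in Cx43 knockdown.

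A list of signalling genes on routes known to induce complement genes gave 24 analysed genes of 29. It held cytokines, receptors, kinases and transcription factors, and also inhibitors (SOCS1, SOCS3 and NFKBIA). In CDH2 knockdown, 1 was past the threshold, IL6R, a chain of the interleukin-6 receptor. Its level in log2(CPM + 1) was 2.70, 2.84 and 2.59 in scramble, 3.33, 3.46 and 3.58 in the CDH2 and 2.94 and 2.67 in the Cx43 knockdown. IL6R rose in CDH2 knockdown (log2 fold change 0.75, SE 0.127, limma adjusted p = 0.0266), and 0.866% of all genes were past the threshold on the higher side. Its adjusted p was 0.15 without scramble replicate 1, 0.097 without CDH2 knockdown replicate 1, 0.0932 without CDH2 knockdown replicate 2 and 0.0567 without either Cx43 knockdown library, and without scramble replicate 3 or CDH2 knockdown replicate 3 its log2 fold change was 0.62, short of 0.731. At an adjusted p under 0.05 alone in limma, IL6R and NFKB1 (log2 fold change 0.37, adjusted p = 0.041) were higher in CDH2 knockdown. CEBPB, which encodes a C/EBP factor, was lower (-0.42, limma adjusted p = 0.0342). These stand beside 14.3% of all genes. SOCS1, an inhibitor of cytokine signalling, had a log2 fold change of -0.63 and is not counted with them. In Cx43 knockdown 0 of the 24 were past the threshold in limma (5 at an unadjusted p under 0.05, SOCS1 among them). The named genes there were SOCS1 (-0.82) and OSMR, a chain of the oncostatin M receptor (0.50, limma adjusted p = 0.265). SOCS1 was also in the files only through its scramble level, so its lower side is a condition of its presence. Its p is not given, and its part in the counts is no result. The medians of the 24 genes were -0.00213 and 0.0465 in CDH2 and Cx43 knockdown.

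C1S and C1R lie next to each other in the genome, on opposite strands (GENCODE v44, hg38). C1S is at chr12:6988259-7071032 on the plus strand, where it overlaps LPCAT3 on the opposite strand, and C1R is at chr12:7080214-7092540 on the minus strand, 9182 bases away, where it overlaps C1RL on the same strand. C3 is at chr19:6677704-6730562 (minus strand, overlapping GPR108), CD46 at chr1:207752037-207795513 (plus strand, overlapping MIR29B2CHG), CD55 at chr1:207321519-207386804 (plus strand) and CD59 at chr11:33703010-33736479 (minus strand). Use of strand in counting is not given in the sources used here, so reads in an overlap could not be assigned with certainty.

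Genes within 250 kb of C1S were examined for like changes. Of 22 such genes, 2 were past the threshold in CDH2 knockdown, beside 2.06% of all genes. They were C1R, itself a gene of interest and described above, and C12orf57 (log2 fold change -0.84, limma adjusted p = 0.0209). With Cx43 shRNA 0 of the 22 were past it (C1R, limma adjusted p = 0.414), beside 1.18% of all genes. The adjusted p of C12orf57 was 0.108 without scramble replicate 1, 0.0988 without CDH2 knockdown replicate 1, 0.0751 without CDH2 knockdown replicate 2 and 0.0567 without either Cx43 knockdown library. The log2 fold changes of the 22 ranged from -1.13 to 0.45 with a median of -0.16 in CDH2 knockdown, and from -0.31 to 0.73 with a median of 0.14 in Cx43 knockdown. LPCAT3, which overlaps C1S, had log2 fold changes of 0.07 and 0.47, and EMG1, the nearest gene on the other side, of 0.08 and 0.14. The log2 fold change of C1S was below those of all 22 neighbours in Cx43 knockdown, and below those of all but C1R in CDH2 knockdown. As C1S was chosen for its fall and was in the files only through scramble, this order was largely set in advance. It is no result about the region. None of the genes within 250 kb of C3 (6 genes), CD46 (2), CD55 (2) or CD59 (1) was past the threshold with limma in either knockdown. These genes are few, and their counts are to be read beside the same shares of all genes. GPR108, which overlaps C3, had log2 fold changes of -0.26 and 0.09, MIR29B2CHG, which overlaps CD46, of 0.18 and -0.34, and FBXO3, next to CD59, of 0.02 and 0.32. C4BPB is the measured gene nearest to CD55 and is described above.

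**Figure D4:**
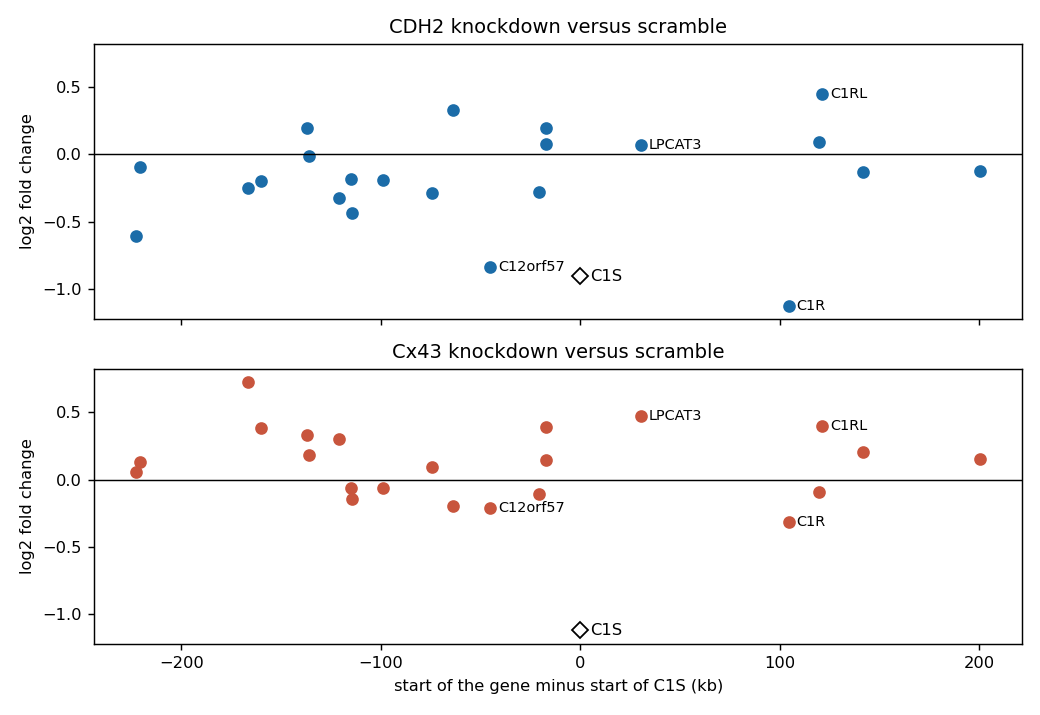
Log2 fold change against scramble, on the log2(CPM + 1) scale, of the 22 genes within 250 kb of C1S, by the distance of each gene's start from the start of C1S in kb, in CDH2 knockdown (top) and Cx43 knockdown (bottom). In CDH2 knockdown C1R and C12orf57 lie near C1S (diamond, not tested), and in Cx43 knockdown no neighbour is below -0.31.

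The genes whose levels were most like those of each complement gene over the 8 libraries were ranked by Pearson's r as a description, with no p. The values of all genes vary in 4 directions only, so high r come easily. The 5 genes most like C1S were RRAS2 (0.9993), STRA6 (0.9987), SNORA71A (0.9984), LMCD1 (0.9951) and AC016026.1 (0.9937). The closest were DCTN6, ASAP3 and PLGRKT for C1R (0.9988 to 0.9966), GPR1, MORC4 and NOMO2 for C3 (0.9976 to 0.9947) and SLC44A1, SFXN3 and TM4SF1 for CD46 (0.9989 to 0.9961). They were ARMCX5 and KIAA2026 for CD55 (0.9966 and 0.9924) and STK11IP, FIG4 and RCN1P2 for CD59 (0.9861 to 0.9798). No complement gene was among those closest to another. Among the 6, C3 and CD55 had the most similar levels (r = 0.97), and r between C1S and C1R was 0.67.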

How the data were processed

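RNA-Seq values of 8 libraries of CSCs from MDA-MB-231 (3 scramble, 3 CDH2 and 2 Cx43 knockdown, grouped by the labels) were used. The authors aligned the reads to hg38 with STAR (version 2.6.1 in the submitters' processing notes) and expectation-maximization, removed 1 low-quality sample, took the log of CPM + 1, used Partek's log normal shrinkage model to take out the run effect and left out low genes. The deposited values are log2(CPM + 1) of 12939 genes, with 1 line without a gene name left out. The annotation used is not given in the sources used here.

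Values were fitted with limma 3.58.1 in R 4.3.3 over all 8 libraries, with group and, as a block, replicate number, which leaves 3 residual degrees of freedom (2.841 added from other genes). Residuals vary in 2 directions. The methods tie the batch effect to 3 replicates of sequencing, and the labels number the replicates. In each number, a gene's deviations from its group means add up to 0 (within 1e-04), so they give no check of the pairing. Two-sided p-values were adjusted by Benjamini-Hochberg over all genes. No filter and no further pseudocount were applied.

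The 6 genes and all lists were chosen with earlier results of these data known. Genes named were the 6, the list genes, the genes most like them, neighbours adjacent or past the threshold, and on the GPI and inducer lists those past the threshold or else the 2 largest changes. PIGA, NFKB1 and CEBPB were named after their values were seen. A further gene that this rule names is not reported here. GENCODE v44 matched 11888 genes (91.9%) by symbol. Scripts were tested on simulated data. The alternatives were no block, quantile normalization, median centring, a filter that keeps 75% of genes, a pseudocount of 0.1, a mean-variance trend, fewer residual degrees of freedom, other thresholds, fits of only the groups compared and leaving out each library.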

Additional observations from a re-analysis of the deposited data

How the results depend on the processing

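Of 396 values recomputed under the alternatives, 345 kept their direction, their side of the threshold and, for counts, their size within 1.5 times. Among the 345 are values that were never past the threshold and counts of 0 that stayed at 0. The total therefore does not measure how firm the calls were. The calls of C1R, SUSD4 and CLU were not kept in every alternative, as given above. The 396 include C1S against scramble, judged by direction and size only. They also hold the fits without scramble replicate 3 and without CDH2 knockdown replicate 3, which are the same fit. C1S was lower than scramble in both knockdowns in every alternative that could give it a value. The group was chosen by this pattern in these same libraries, so this adds no support. With a pseudocount of 0.1 its log2 fold changes were -1.12 and -1.43, as a smaller pseudocount shrinks low genes less. The filter on low means removed C1S, C1R and SUSD4 among others, so complement genes past the threshold were 1 (CLU) in CDH2 knockdown and 0 in Cx43 knockdown.

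Without the replicate block, the lower complement genes past the threshold were 2 in Cx43 knockdown (SUSD4 and C4BPB) and 1 in the direct comparison (C1R, log2 difference -0.82, adjusted p = 0.0158). ITGAX joined the others in CDH2 knockdown. All genes past the threshold were 331 in CDH2 knockdown without the block and 267 with it. They were 532 and 153 in Cx43 knockdown, and 360 and 0 in the direct comparison. The block changed no other call of the complement genes. With residual degrees of freedom equal to the 2 residual directions, the count in Cx43 knockdown was 0. In a fit of only the groups compared, C1R in CDH2 knockdown had a log2 fold change of -1.13 with an adjusted p of 0.0561, the lower complement genes were 0 in CDH2 knockdown and 3 in Cx43 knockdown (C4BPB, SUSD4 and ITGAM), and all genes past the threshold were 0 and 741. The cause was not tested. Quantile normalization turned CD46 in CDH2 knockdown to -0.015. No scaling moved the median of all genes past 0.1.

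When each library was left out in turn, a group left with 1 library was assumed to vary like the others. C1R ranged from -1.31 to -0.98 in CDH2 knockdown, from -0.68 to 0.056 in Cx43 knockdown (reversed without Cx43 knockdown replicate 1) and from -1.19 to -0.45 in the direct comparison. C1S ranged from -1.02 to -0.82, from -1.35 to -0.90 and from -0.0083 to 0.44. In CDH2 knockdown C3 ranged from -0.28 to 0.0048, CD46 from -0.14 to 0.26 and CD55 from -0.16 to 0.067. CD59 ranged from -0.12 to 0.034 in Cx43 knockdown and from -0.16 to 0.0082 in the direct comparison. The signs of these small differences are not settled. Complement genes past the threshold in CDH2 knockdown ranged from 0 to 1 (C1RL) higher and 0 to 3 lower. They ranged from 0 to 3 lower in Cx43 knockdown and from 0 to 1 lower in the direct comparison. These are to be read beside all genes past the threshold, which ranged from 0 to 723, 0 to 730 and 0 to 545. Without scramble replicate 2, the lower genes in CDH2 knockdown included C5AR1, whose lower side is a condition of its presence.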
